A study of Homo sapiens with 6 samples.

Results

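The 10 genes described here are YAP1 and WWTR1, which encode the co-activators YAP and TAZ, the 4 TEAD transcription factors, and 4 genes that serve as standard readouts of YAP and TAZ activity, CTGF (now CCN2), CYR61 (now CCN1), ANKRD1 and AMOTL2. They were taken by symbol, as every array feature whose gene name in the files is one of these symbols or its synonym, whatever its values. This gave 18 features of 45033 on the array, 4 for YAP1, 3 for AMOTL2, 2 each for TEAD1, TEAD4 and CTGF, and 1 for each of the others. The 7 features that the files name TAZ belong to tafazzin, another gene, and were left out. All samples are HCC-LM3, an established human liver cancer cell line selected for metastasis. Cells infected with Lv-shASPP2, a lentivirus with a short hairpin RNA against ASPP2 (gene TP53BP2), were compared with cells infected with the control virus Lv-shNon, 1 week after infection. Each group holds 3 samples that the labels call separate cultures, and each sample was read on its own 1-colour NimbleGen array. Both groups therefore carry a lentivirus, and the number of hairpin sequences used is not given in the sources used here.

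YAP and TAZ carry no DNA-binding domain of their own and act on genes through TEAD factors. In the Hippo pathway MST kinases activate LATS kinases, and LATS phosphorylates YAP and TAZ. This holds YAP and TAZ in the cytoplasm and leads to their breakdown, so that much of their control does not show in their own mRNA. In liver the pathway limits organ size, and YAP drives the growth of hepatocellular tumours in mice. ASPP2 is known to bring the phosphatase PP1 to TAZ, and its relative ASPP1 binds YAP and TAZ as well. CTGF and CYR61 encode secreted matricellular proteins of the CCN family, ANKRD1 a nuclear ankyrin repeat protein, and AMOTL2 an angiomotin that binds YAP at junctions and holds it back.

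The TEAD factors bind a short core motif, written GGAATG on one strand and CATTCC on the other. The promoters of 3 readout genes are shown because they hold it, and these genes are known TEAD targets. The sequences come from RefSeq on GRCh38.p14, 5′ to 3′ on the gene's strand, as the 250 bases before the annotated start, with each match to the motif in capitals. CTGF lies at chr6:131951373-131951622, minus strand, ANKRD1 at chr10:90921088-90921337, minus strand, and the first of 2 AMOTL2 starts at chr3:134374448-134374697, minus strand.
CTGF: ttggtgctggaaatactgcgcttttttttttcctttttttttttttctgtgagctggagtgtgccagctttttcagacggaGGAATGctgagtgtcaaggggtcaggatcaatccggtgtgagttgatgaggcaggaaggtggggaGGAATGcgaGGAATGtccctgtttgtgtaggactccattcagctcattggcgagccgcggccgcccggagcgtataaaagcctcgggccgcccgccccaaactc
ANKRD1: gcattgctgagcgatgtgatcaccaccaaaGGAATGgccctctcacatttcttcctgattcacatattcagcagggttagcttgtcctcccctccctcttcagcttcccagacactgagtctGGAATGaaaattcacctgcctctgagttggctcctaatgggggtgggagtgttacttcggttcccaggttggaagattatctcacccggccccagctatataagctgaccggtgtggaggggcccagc
AMOTL2: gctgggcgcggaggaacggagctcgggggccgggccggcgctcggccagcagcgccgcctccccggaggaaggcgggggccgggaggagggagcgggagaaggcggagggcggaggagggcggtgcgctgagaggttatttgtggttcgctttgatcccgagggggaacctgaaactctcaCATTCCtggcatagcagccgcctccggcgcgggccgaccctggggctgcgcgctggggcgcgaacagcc
The CTGF window holds 3 matches, starting at positions -169, -104 and -95 before the start, and the ANKRD1 window 2, at -220 and -128. The window of the first AMOTL2 start has 1 match, on the opposite strand at -69 to -64. The YAP1 promoter also holds 1, at -162. Of 35116 promoter windows of the same length in the table, 11.9% hold at least 1 match, 0.940% at least 2 and 0.0826% at least 3. Windows were available for 7 of the 10 genes, and those of WWTR1, TEAD2, TEAD3 and the second AMOTL2 start hold no match. None was available for the readout gene CYR61 or for TEAD1 and TEAD4, so their promoters were not searched. A match is a stretch of letters and not a measured binding site, and nothing in these arrays measures binding.

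**Figure D1:**
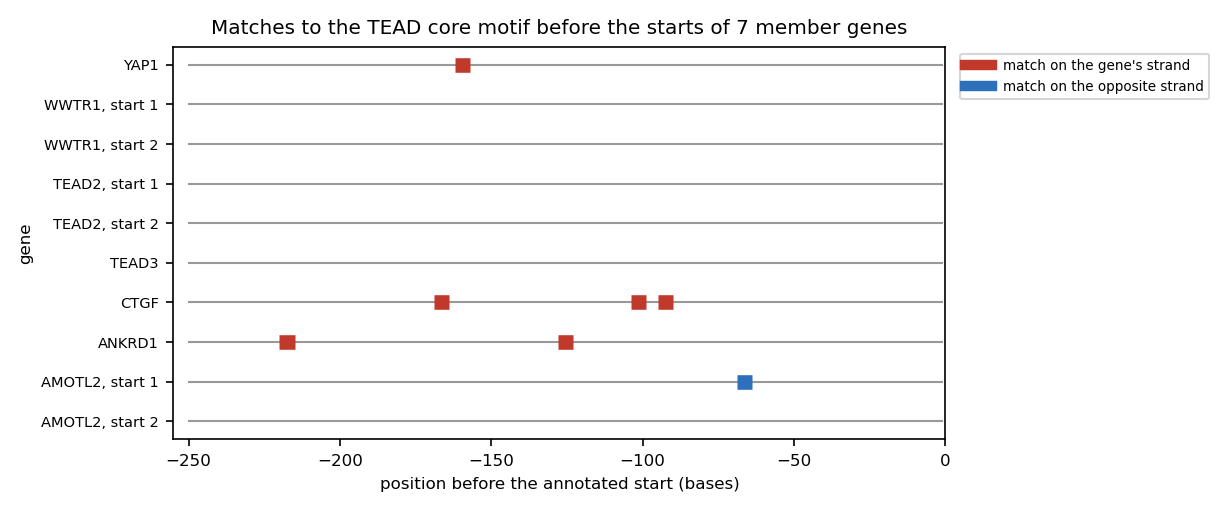
Positions of matches to the TEAD core motif in the 250 bases before the annotated starts of 7 of the 10 genes, in bases before the start; grey lines are the windows, red blocks matches on the gene's strand and the blue block a match on the opposite strand. CTGF has 3 matches, ANKRD1 2, and YAP1 and the first AMOTL2 start 1 each.

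Across the whole array, the random-sequence probes that match no transcript had an intensity of 30.4 to 33.3, and 58.9% to 60.9% of features lay above 2 times that level. Of the 18 features, 17 lay above 2 times the level on all 6 arrays. The exception was ANKRD1, which lay above it on none. The target was lower on all 3 shASPP2 arrays, with TP53BP2 at 424 ± 81.9 (SD, n = 3) in the control and 197 ± 43.5 (SD, n = 3) after knockdown on its brighter feature. Of 9 liver cell markers 4 (ALB, TF, HNF4A and FGB) were above 2 times the random level on all arrays, while AFP, APOA1, APOB, TTR and SERPINA1 were above it on some arrays only. The summed intensity of the 9 was 7240 to 8545 in shNon and 5626 to 6524 in shASPP2. Of 5 endothelial markers PECAM1 was above the level on all arrays, KDR, VWF and TEK on none, and the sum was 2025 to 2137 in shNon against 987 to 1220 in shASPP2. Of 7 fibroblast and stellate markers 2 were above it on all arrays (COL1A1 and LUM), with a sum of 505 to 717 against 609 to 744. Of 5 leukocyte markers 1 was (CD68), with a sum of 2746 to 3662 against 3608 to 4183. All samples are a single cell line, so these sums are not read as shares of cell types. In bulk RNA a change in some cells of the line and a change in all of them cannot be told apart. The part of these shifts in the values below was not tested.

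None of these genes passed the test for a change after ASPP2 knockdown, and the features with the largest differences, both of TEAD4, were higher in shASPP2. In limma with Benjamini-Hochberg adjustment over all features, 0 of the 18 features passed an adjusted p of 0.05, against 0.138% of all features (62 of 45033; 0.0533% higher and 0.0844% lower in shASPP2). Before adjustment 2 features had p under 0.05, both of TEAD4 and both higher. That is 11.1% of the 18 features, against 11.4% of all features, of which 5.70% were higher and 5.68% lower. The log2 fold changes (shASPP2 minus shNon) ran from -0.31 to 0.68 with a median of 0.13, beside a median of 0.01 over all features. In 5 features, of YAP1, WWTR1, TEAD4 (both) and CYR61, every shASPP2 array lay above every shNon array, and in none did every shASPP2 array lie below. That is 27.8% of the 18, where 18.6% of all features had groups that did not overlap, 9.46% in the higher and 9.17% in the lower direction. With several features for 1 gene these counts are over 10 genes, not 18 independent ones.

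**Figure D2:**
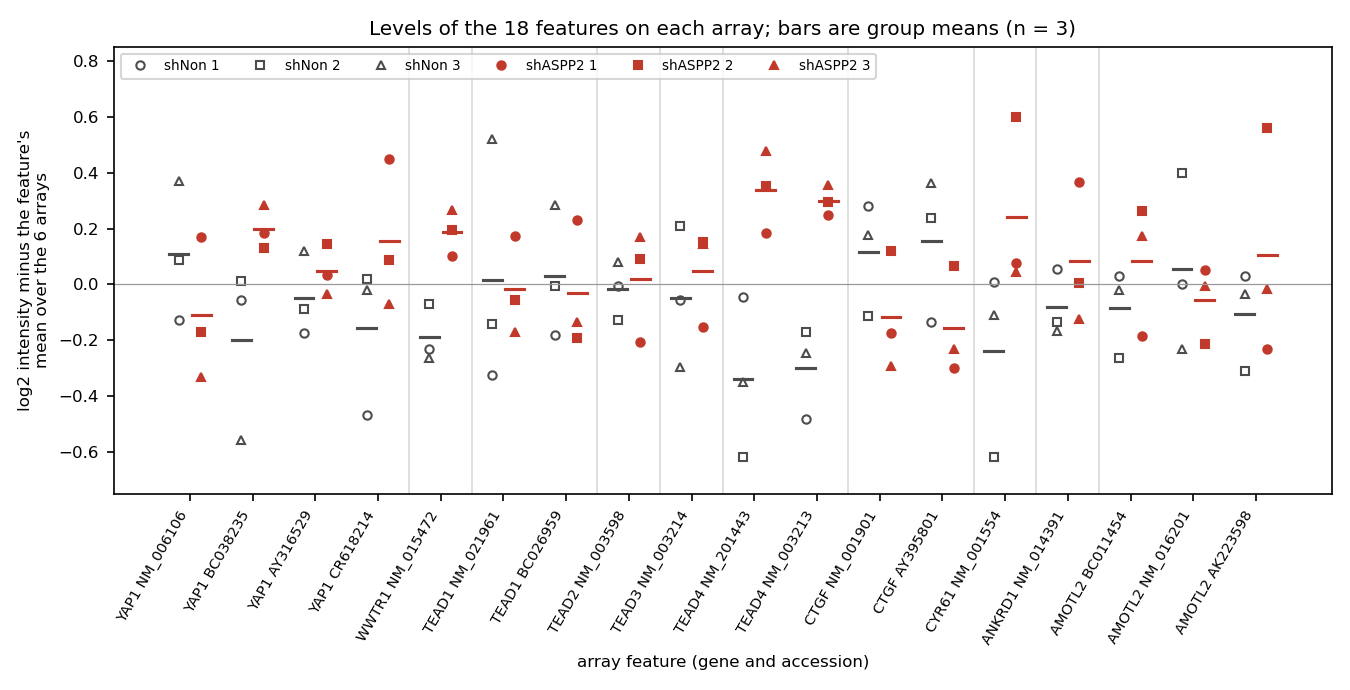
Log2 intensity of each of the 18 features on each of the 6 arrays, minus that feature's mean over the 6 arrays; open grey symbols are shNon, filled red symbols shASPP2, symbol shapes the replicate number within a group, and short bars group means (n = 3). In both TEAD4 features, WWTR1, CYR61 and 1 of 4 YAP1 features the red points lie above all grey points.

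YAP1 was measured by 4 features that did not point the same way. All span the same locus on chromosome 11 (101486401 to 101609359, hg18), and the files give no probe positions, so the exons they read are not known here. The feature BC038235 had intensities of 2450, 2573 and 1733 on shNon arrays 1, 2 and 3 and of 2897, 2790 and 3104 on the shASPP2 arrays. There the groups did not overlap, and shNon array 3 was the low one. This feature had a log2 fold change of 0.40 (SE 0.208, 95% interval -0.09 to 0.89; limma adjusted p = 0.522). The feature NM_006106 read 2827, 3278 and 3985 in shNon and 3474, 2742 and 2454 in shASPP2. Here shNon array 3 was the highest of the 6, the groups overlapped, and the log2 fold change was -0.22 (SE 0.219, 95% interval -0.73 to 0.29; limma adjusted p = 0.737). The feature CR618214 read 1580, 2212 and 2151 in shNon and 2981, 2320 and 2079 in shASPP2, with overlap through shASPP2 array 3 and a log2 fold change of 0.31 (95% interval -0.22 to 0.84). AY316529 read 2004, 2123 and 2453 in shNon and 2310, 2495 and 2208 in shASPP2, which overlap, with a log2 fold change of 0.10 (95% interval -0.31 to 0.50). Single arrays moved these values, with BC038235 at 0.22 and NM_006106 at -0.09 without shNon array 3. NM_006106 was also at -0.34 without shNon array 1, at -0.36 without shASPP2 array 1 and at -0.11 without shASPP2 array 3. CR618214 was at 0.16 without shNon array 1 and at 0.16 without shASPP2 array 1, and AY316529 ran from 0.03 without shNon array 1 to 0.18 without shNon array 3. The mean of the 4 features gave a log2 fold change of 0.15 (SE 0.152, 95% interval -0.21 to 0.51; limma adjusted p = 0.732 over all genes), and the arrays of the groups overlapped.

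WWTR1, which encodes TAZ, has a single feature (chromosome 3, 150720721 to 150858472, hg18). Its intensities were 1790, 2003 and 1752 in shNon and 2257, 2407 and 2525 in shASPP2. All 3 shASPP2 arrays lay above all 3 shNon arrays, and the spread within each group was small (SD 135 and 134, n = 3). The log2 fold change was 0.38 (SE 0.167, 95% interval -0.02 to 0.77), a fold of 1.30, with a limma adjusted p of 0.459 and an exact permutation p of 0.1 (two-sided), the smallest that 3 against 3 allows. The value stayed between 0.34 and 0.43 over 16 alternatives.

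Among the TEAD genes, TEAD4 had the largest difference and the other 3 were at log2 fold changes of 0.10 or less in size. TEAD4 (chromosome 12, 2938756 to 3020103, hg18) is a TEAD factor known for its part in trophectoderm formation and in YAP-driven tumours. Its feature NM_003213 read 480, 596 and 566 in shNon and 797, 822 and 858 in shASPP2. Its other feature, NM_201443, read 727, 490 and 589 in shNon and 852, 959 and 1046 in shASPP2. In both, every shASPP2 array was above every shNon array, although shNon array 1 was the lowest of its group on the former and the highest on the latter. The log2 fold changes were 0.60 (SE 0.174, 95% interval 0.19 to 1.00) and 0.68 (SE 0.209, 95% interval 0.19 to 1.16), with limma adjusted p-values of 0.289 and 0.314. These are 1.51-fold and 1.60-fold differences. Neither feature passed under any of 16 alternatives, where the adjusted p ran from 0.0822 to 0.666 for NM_003213 and from 0.0596 to 0.682 for NM_201443. The mean of both features was 9.21, 9.08 and 9.17 log2 in shNon and 9.69, 9.79 and 9.89 log2 in shASPP2. It differed by 0.64 log2 (SE 0.143, 95% interval 0.30 to 0.97), again short of the threshold over all genes (limma adjusted p = 0.174).

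TEAD1, the factor first described as a binder of the SV40 enhancer, read 918, 1041 and 1648 in shNon and 1296, 1106 and 1022 in shASPP2 on NM_021961 (chromosome 11, 12742300 to 12922859, hg18). The groups overlapped fully, since shNon held both the lowest and the highest array. The log2 fold changes of its features were -0.03 (95% interval -0.64 to 0.57) and -0.06 (95% interval -0.55 to 0.43), and without shNon array 3 they were 0.22 and 0.06. TEAD2 (chromosome 19, 54535663 to 54557526, hg18) read 2121, 1950 and 2250 in shNon and 1844, 2270 and 2395 in shASPP2, with a log2 fold change of 0.04 (95% interval -0.40 to 0.47). TEAD3 (chromosome 6, 35549351 to 35572763, hg18) read 1791, 2151 and 1514 in shNon and 1675, 2066 and 2057 in shASPP2, with a log2 fold change of 0.10 (95% interval -0.38 to 0.57). For each of these 3 genes the interval covers differences in both directions, and it is widest for TEAD1.

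The CCN genes CTGF and CYR61 differed in direction, with lower mean intensity of the former and higher of the latter in shASPP2, and neither passed the test. CTGF (chromosome 6, 132309645 to 132314155, hg18), whose promoter with 3 motif matches is shown above, read 296, 225 and 275 in shNon and 216, 264 and 199 in shASPP2 on NM_001901. On AY395801 it read 195, 253 and 275 in shNon and 174, 224 and 182 in shASPP2. On both features shASPP2 array 2 lay within the shNon range, so the groups overlapped, with lower means in shASPP2. The log2 fold changes were -0.23 (SE 0.201, 95% interval -0.70 to 0.24; limma adjusted p = 0.701) and -0.31 (SE 0.209, 95% interval -0.80 to 0.18; limma adjusted p = 0.615). Without single arrays NM_001901 ran from -0.35 (without shNon array 2 or shASPP2 array 2) to -0.14 (without shASPP2 array 3), and AY395801 from -0.46 (without shNon array 1) to -0.21 (without shNon array 3). CYR61 (chromosome 1, 85819047 to 85821978, hg18) read 325, 210 and 299 in shNon and 340, 489 and 333 in shASPP2. Its groups did not overlap, but only just, since the lowest shASPP2 array stood close to the highest shNon array. The log2 fold change was 0.48 (SE 0.25, 95% interval -0.11 to 1.06; limma adjusted p = 0.522), and the difference was 0.29 log2 without shNon array 2, 0.30 log2 without shASPP2 array 2 and at most 0.60 log2 without any other single array.

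The contrast between paralogues was set out array by array, as a log2 ratio within each array. The 3 pairs were chosen with earlier results of these data known, and adjustment over 3 pairs does not cover that choice. Ratios between features depend on the probes, so only the shift between the groups is read. The log2 ratio of CYR61 to CTGF was 0.13, -0.10 and 0.12 on the shNon arrays and 0.65, 0.89 and 0.74 on the shASPP2 arrays. It was 0.71 log2 higher in shASPP2, at 0.76 ± 0.12 against 0.05 ± 0.13 (SD, n = 3), and the groups were far apart relative to their spread. The exact permutation test (two-sided) gave p = 0.1, the smallest possible with 3 against 3, and p = 0.15 adjusted over the 3 pairs compared. With the mean of both CTGF features the shift was 0.75 log2. For WWTR1 over YAP1 the shift was 0.60 log2 (exact permutation p = 0.1, 0.15 adjusted), but it was 0.23 log2 with the mean of the 4 YAP1 features, so it rests on which YAP1 feature is used. For TEAD4 over TEAD1 the shift was 0.71 log2, the groups overlapped through shNon array 1 at -0.34, and the exact permutation p was 0.2 (0.2 adjusted). This shift was 0.45 log2 without shNon array 3 and 1.03 log2 without shNon array 1. With a smallest possible p of 0.1, none of the 3 shifts could have passed 0.05 in this test, so nothing is read from their not passing. A ratio does not tell which gene of a pair differs.

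**Figure D3:**
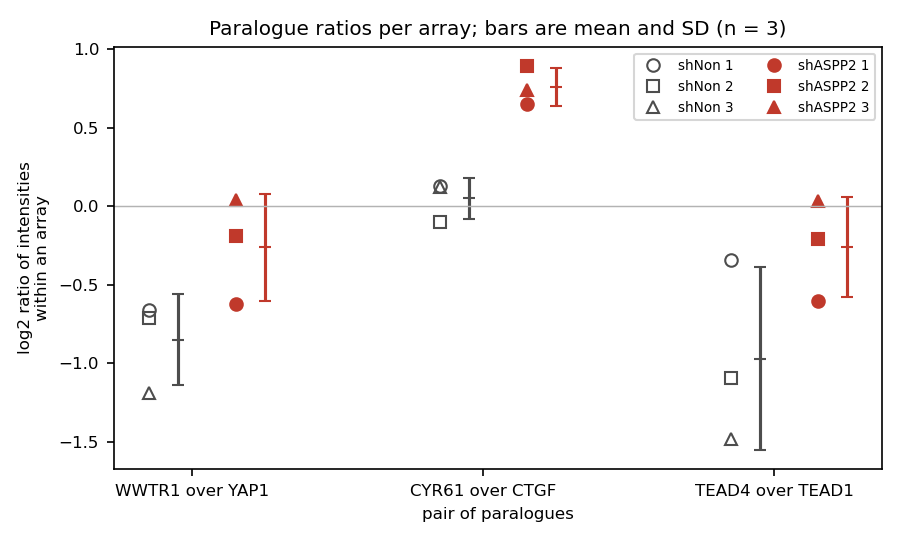
Log2 ratio of the intensities of 2 paralogues within each array, for 3 pairs, using the brightest feature of each gene; open grey symbols are shNon, filled red symbols shASPP2, and bars the mean and SD of each group (n = 3). CYR61 over CTGF lies between -0.10 and 0.13 on the shNon arrays and between 0.65 and 0.89 on the shASPP2 arrays.

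ANKRD1 and AMOTL2 gave little to compare. ANKRD1 (chromosome 10, 92661836 to 92671012, hg18), whose promoter holds 2 of the motif matches shown above, read 40.4, 35.3 and 34.6 in shNon and 50.1, 38.9 and 35.6 in shASPP2. These values lie between 1 and 2 times the random-probe level on all 6 arrays, so that the log2 fold change of 0.17 (95% interval -0.30 to 0.63) is no measure of a level. AMOTL2 (chromosome 3, 135556879 to 135576096, hg18) was read by 3 features. BC011454 read 1130, 923 and 1091 in shNon and 973, 1328 and 1248 in shASPP2, with a log2 fold change of 0.17 (95% interval -0.30 to 0.63). NM_016201 read 740, 975 and 631 in shNon and 766, 638 and 737 in shASPP2, with -0.11 (95% interval -0.62 to 0.39). The dim AK223598 read 106, 83.8 and 101 in shNon and 88.5, 153 and 103 in shASPP2, with 0.21 (95% interval -0.37 to 0.79), and turned to -0.02 without shASPP2 array 2. The groups overlapped on each of the 3.

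**Figure D4:**
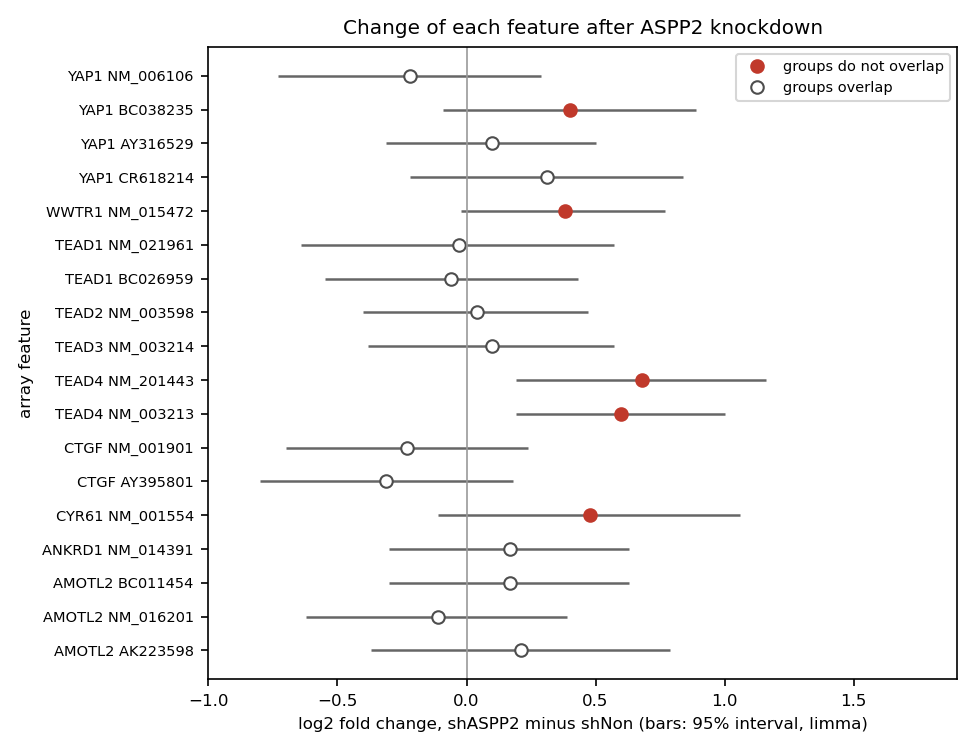
Log2 fold change (shASPP2 minus shNon) of each of the 18 features, with limma's 95% interval; filled red points are features whose groups do not overlap, open points those whose groups overlap. The intervals of both TEAD4 features lie above 0, from 0.19 to 1.00 and from 0.19 to 1.16, and the other 16 intervals include 0.

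The rest of the Hippo pathway was counted over 31 genes, each by its brightest feature, with the adjustment over all 23593 named genes. In limma 0 of the 31 passed, against 0.102% of all genes (24 of 23593; 0.0424% higher and 0.0593% lower). Before adjustment 6 genes had p under 0.05, which is 19.4% against 11.5% of all genes. The list was chosen with earlier results of these data known, so this share is a description only. Of the 6, 2 were higher and 4 lower, where 5.54% of all genes were higher and 5.93% lower. In 8 of the 31 the groups did not overlap, 4 higher and 4 lower. That is 25.8% beside 18.8% of all genes, where 9.30% were higher and 9.52% lower. The median log2 fold change of the 31 was -0.02, beside 0.01 over all genes. Among the 6 was the knockdown target itself, TP53BP2, at -1.11 (SE 0.249, limma adjusted p = 0.204; -1.41 on its other feature). WWC1, which encodes KIBRA, an upstream activator of the LATS kinases, read 158, 217 and 192 in shNon and 116, 125 and 93.8 in shASPP2. The groups of this gene did not overlap, and its log2 fold change was -0.76 (SE 0.206, limma adjusted p = 0.267; -0.34 on its other feature). AJUBA, a LIM protein that binds and restrains LATS kinases, read 1319, 1323 and 1068 in shNon and 1871, 1589 and 1769 in shASPP2. It had a log2 fold change of 0.50 (SE 0.179, limma adjusted p = 0.369; 0.59 and 0.20 on its other features). MOB1A, a co-activator of LATS kinases, was at 0.57 (SE 0.200, limma adjusted p = 0.363) on the feature used. On its other feature it was at -0.08, smaller in size than the SE of 0.272. VGLL2, a TEAD cofactor, was at -0.78 (SE 0.270, limma adjusted p = 0.359), with 1 of its 6 arrays above 2 times the random-probe level. The sixth gene, the scaffold gene SAV1, and the core kinase genes are outside the naming rule and were added after their values were seen. SAV1 was at -0.39, and at 0.04 on its other feature. The kinase genes were at -0.03 for STK3, -0.15 for STK4, 0.16 for LATS1 and -0.29 for LATS2, with limma adjusted p-values of 0.968, 0.765, 0.782 and 0.621. On other features STK3 was at -0.51, STK4 at -0.11 to 0.79 and LATS1 at 0.56 and 0.44, so these values depend on the feature read.

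A wider set of 22 YAP and TAZ target genes, mostly from published signatures and including LATS2, gave 1 call. Of all genes 0.102% passed. This list too was chosen with earlier results of these data known. IGFBP3, which encodes a carrier of insulin-like growth factors and is also a p53 and TGF-beta target, read 4298, 4404 and 4141 in shNon and 1369, 1672 and 1372 in shASPP2. It fell by 1.55 on the log2 scale (SE 0.170, limma adjusted p = 0.0379), and its other feature was at -1.43. The call was lost without any single array (adjusted p from 0.108 to 0.331) and with the replicate block (adjusted p = 0.347), while the log2 fold change stayed between -1.64 and -1.49. Of the 22 genes 14 had positive and 8 negative log2 fold changes, where 11967 of all 23593 genes had positive ones. The median of the 22 was 0.10, beside 0.01 over all genes. In 6 of the 22 the groups did not overlap, 5 of them higher. This is 27.3% beside 18.8% of all genes, of which 9.30% were higher and 9.52% lower. In limma before adjustment 3 of the 22 had p under 0.05, 2 higher and 1 lower. That is 13.6% beside 11.5% of all genes, where 5.54% were higher and 5.93% lower. NUAK2, an AMPK-related kinase, read 154, 110 and 92.6 in shNon and 179, 251 and 197 in shASPP2, with a log2 fold change of 0.83 (SE 0.247, limma adjusted p = 0.302). TGFB1I1, the focal adhesion protein Hic-5, was also at 0.83 (SE 0.260, limma adjusted p = 0.324), from dim levels of 59.7 ± 9.39 in shNon and 108 ± 31.3 in shASPP2. F3, which encodes tissue factor, was at 0.38 (SE 0.189, limma adjusted p = 0.497; 0.61 and 0.56 on its other features). RBMS3 was at 0.61 (SE 0.316, limma adjusted p = 0.516), but at 0.07 and -0.05 on its other features. The feature used was dim, with 4 of its 6 arrays above 2 times the random-probe level, and its groups overlapped. Without shNon array 3 it was at 0.28.

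**Figure D5:**
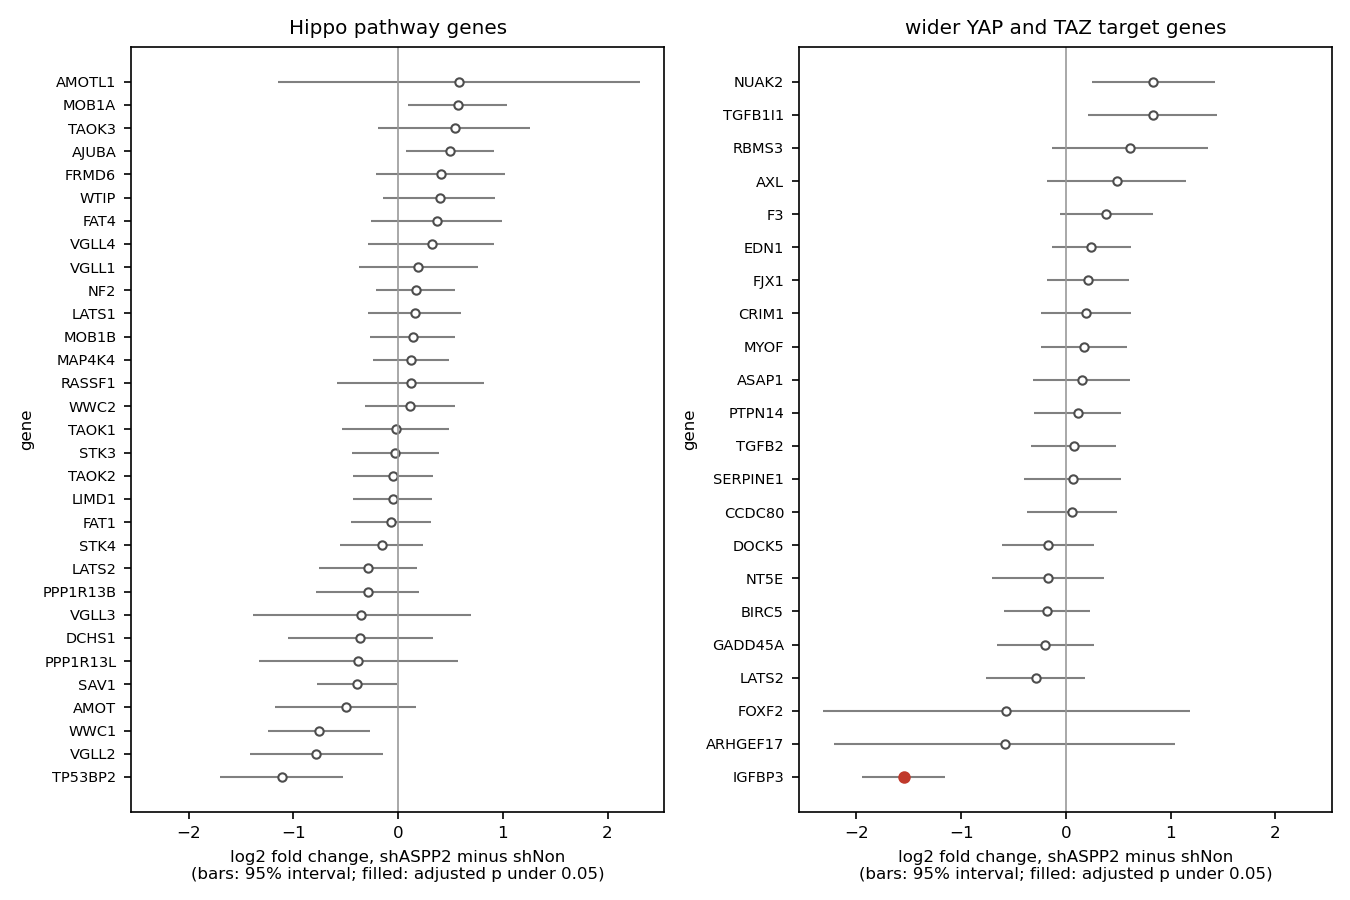
Log2 fold change (shASPP2 minus shNon) with limma's 95% interval for 31 Hippo pathway genes (left) and 22 wider YAP and TAZ target genes (right), each by its brightest feature and in order of the fold change; filled points passed an adjusted p of 0.05 over all genes. IGFBP3, at -1.55, is the single filled point.

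Genes whose log2 intensity followed the members most closely over the 6 arrays were named from 10824 genes brighter than the median. For YAP1 (feature NM_006106) they were PHYH, CKAP2 and ERCC6L, with Pearson correlations of 0.997, 0.997 and 0.990. For CTGF they were COPS3 (0.993), TSC22D1 (0.986) and NTHL1 (0.980), and for CYR61 PLSCR3 (0.992), DUSP3 (0.983) and CMTM8 (0.982). Of the 10824 genes, 180, 68 and 73 correlated above 0.9 with these features of YAP1, CTGF and CYR61. With 6 arrays and the highest values picked, the correlations are a description only. None of the named genes is another member, and their own log2 fold changes ran from -0.25 to 0.34. The YAP1 feature used here was at -0.22, while the other YAP1 features had positive log2 fold changes.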

How the data were processed

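Total RNA of 6 HCC-LM3 samples was labelled with Cy3 and hybridised to 1-colour NimbleGen arrays. The authors deposited 1 intensity per feature and array on a linear scale, and the submitters' processing notes name RMA as the tool. Its settings and version, the scanner and any batches of slides or scans are not given here. RMA makes the arrays' distributions alike and compresses the fold changes of dim features. Of 45033 features 45031 were summarised from 3 probes. A row of 2508 random-sequence probes gave the unspecific level and was not tested. The value table deposited with the series holds the same intensities (0 differing cells). Coordinates are those of the files (hg18). Symbols were updated through gene identifiers in RefSeq's table of GRCh38.p14.

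Log2 intensities were fitted with limma 3.58.1 in R 4.3.3 (lmFit and eBayes), with group as the only term, two-sided, and Benjamini-Hochberg adjustment over 45033 features or 23593 genes. The feature with the highest mean stood for a gene. The number of arrays limits the precision. Intervals are limma's 95% intervals. The fit was tested on simulated data.

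The members, both gene lists and the tests were chosen with earlier results of these data known. Named genes are all members, TP53BP2, every list gene past the threshold and the 5 of each list with the smallest p, and the 3 genes most correlated with YAP1, CTGF and CYR61, without locus or clone names. Promoters were cut to the 250 bases before the start. Alternatives were the value table, median centring, cyclic loess, quantile normalization, subtraction of the random-probe level (floor 16), the replicate block, array weights, a variance trend with robust estimation, filters at 2 times the random-probe level and at the median, leaving out each array, and the mean of all features of a gene.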

Additional observations from a re-analysis of the deposited data

How the results depend on the processing

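None of the 18 features passed under any alternative, with a lowest adjusted p of 0.0596 (TEAD4, trend and robust variance). In 11 of 285 fits the sign turned, in 6 features of TEAD1, TEAD2, TEAD3 and AMOTL2. The count over all features, 62, was 145 after subtraction of the random-probe level, 207 and 405 with the filters at 2 times that level and at the median, 952 with trend and robust variance, and 0 to 17 without single arrays. Of the Hippo genes, 0 passed, but 1 (TP53BP2) did with trend and robust variance. The count of wider targets, 1, was 0 without any one array. The shift of WWTR1 over YAP1, 0.60, was 0.23 with the mean of all features of a gene. Some of these fits had fewer samples or features, and the cause of the differences was not tested.

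With the replicate block limma called 0 of all features, and 0 of the wider targets. Same-numbered arrays did not deviate together (r = 0.06, -0.08 and -0.13), so the block has no support as a pairing, and it changed no other call. Arrays measure signal over background, which leaves the ANKRD1 level unmeasured.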
